A study of Mus musculus with 6 samples.

Results

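The 9 genes described here make and move the high-energy phosphates of muscle: the creatine kinases Ckm, Ckmt2 and Ckb, the adenylate kinase Ak1, the AMP deaminases Ampd1 and Ampd3, the adenylosuccinate synthase Adssl1, the creatine transporter Slc6a8 and the mitochondrial ADP/ATP carrier Slc25a4. They were chosen by symbol for their function, with earlier results of these data known. All 9 were found among the 22036 genes of the deposited table. The RNA came from a thigh muscle, the quadriceps femoris, of Prr14-WT mice (wild type, WT) and Prr14-KO mice (knockout, KO), with 3 nanopore cDNA libraries each. The PRR14 protein sits at the nuclear periphery, and the series title ties it to myofibre identity through MEF2C. The sources used here do not give the age, sex or strain of the mice, the part of Prr14 removed, or whether the knockout was limited to a tissue.

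Contracting muscle spends ATP faster than mitochondria can deliver it, and phosphocreatine refills it through creatine kinase. Adenylate kinase draws further ATP from pairs of ADP molecules and leaves AMP. AMP deaminase then turns AMP into IMP, and the adenylosuccinate enzymes return IMP to AMP; together these steps form the purine nucleotide cycle, which is most active in fast fibres. Ampd1 encodes the main deaminase of adult skeletal muscle, and Ampd3 encodes the isozyme first known from red blood cells, whose mRNA is known to rise in denervated and wasting muscle.

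Of these genes Ampd3 changed and the others did not pass the test. Ampd3 was 4.09-fold higher in KO muscle (95% interval 2.92 to 5.72). For 6 of the 9 genes, Ckm, Ckmt2, Ak1, Ampd1, Adssl1 and Slc25a4, the 95% interval of the difference excluded a 2-fold change in either direction, and for Ckb and Slc6a8 it did not. By edgeR's quasi-likelihood test with p-values adjusted over all 6680 genes tested, 1 of the 9 genes was higher and 0 were lower (adjusted p under 0.05), against 2.98% of all tested genes higher and 3.28% lower (6.26% in either direction). Without adjustment, Ampd3 and Ak1 had p under 0.05, 2 of the 9, against 20% of all tested genes. DESeq2 and limma-voom also called Ampd3 alone. The median log2 fold change (log2FC) of the 9 genes was -0.10, beside 0.02 for all tested genes. Levels below are in CPM, read counts divided by library sizes in units of 1e6 after TMM scaling. A ± sign gives the SD over 3 libraries, every log2FC is KO over WT, padj is the adjusted p, and values of single libraries stand in the order of replicates 1 to 3.

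The promoters of Ampd3, the gene that changed, and of Ckm, the most abundantly read of the 9, are shown because E-boxes, the CANNTG motif that myogenic factors bind, are a textbook feature of muscle promoters. Each is the 250 bases before a transcript start on the plus strand of chromosome 7, from RefSeq on GRCm38.p6, 5′ to 3′, with every CANNTG in capitals (the motif reads the same way on both strands).
Ckm, chr7:19410844-19411093: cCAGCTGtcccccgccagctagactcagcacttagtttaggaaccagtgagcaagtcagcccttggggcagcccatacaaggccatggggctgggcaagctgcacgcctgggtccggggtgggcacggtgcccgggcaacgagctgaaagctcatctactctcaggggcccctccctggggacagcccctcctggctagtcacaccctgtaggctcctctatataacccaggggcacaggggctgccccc
Ampd3 start 1, chr7:110768372-110768621: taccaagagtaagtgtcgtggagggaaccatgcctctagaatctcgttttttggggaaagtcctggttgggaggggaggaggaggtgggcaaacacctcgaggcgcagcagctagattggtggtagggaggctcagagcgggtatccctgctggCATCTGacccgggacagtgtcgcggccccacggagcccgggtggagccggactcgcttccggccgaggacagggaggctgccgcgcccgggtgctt
Ampd3 start 2, chr7:110772354-110772603: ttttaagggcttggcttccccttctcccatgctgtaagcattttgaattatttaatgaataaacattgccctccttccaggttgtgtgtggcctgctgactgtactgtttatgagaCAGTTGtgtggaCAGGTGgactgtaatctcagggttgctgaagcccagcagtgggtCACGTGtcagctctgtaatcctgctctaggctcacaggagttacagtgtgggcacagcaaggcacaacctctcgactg
Ampd3 start 3, chr7:110773386-110773635: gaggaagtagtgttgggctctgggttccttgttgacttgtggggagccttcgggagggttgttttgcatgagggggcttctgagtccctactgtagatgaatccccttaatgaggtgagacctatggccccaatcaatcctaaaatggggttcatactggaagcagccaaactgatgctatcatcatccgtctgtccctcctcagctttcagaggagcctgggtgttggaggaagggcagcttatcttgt

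The Ckm window held 1 CANNTG match, which was also CAGCTG. The windows before Ampd3 starts 1 and 2 held 1 and 3 matches of CANNTG, none of them CAGCTG and none overlapping another, and that before start 3 held 0. Such matches are common: 66.2% of 32841 windows of this length hold CANNTG and 13.00% hold CAGCTG. Promoters of 7 of the 9 genes were in the table, with 12 windows, 4 of them of Ak1 and 3 of Ampd3. Of the 12 windows, 10 held CANNTG, in 6 genes, and 4 held CAGCTG, in 3 genes. The MEF2 consensus, searched on both strands, was found in the window of Ckb only, against 2.92% of all windows. The CArG box of serum response factor was found in Ampd3 start 3 only, against 1.47%. Sequence outside these windows was not searched, so sites farther from a start would be missed. The counts are per gene, so they do not say which Ampd3 start the reads came from.

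The libraries held 1436099 to 1712975 reads on listed genes. The targeted gene was thinly read, with 9, 11 and 12 Prr14 reads in the WT libraries and 4, 10 and 3 in the KO libraries, so the library labelled KO replicate 2 stood near WT (log2FC -1.10, SE 0.46, edgeR padj = 0.196). Muscle markers (Acta1, Des, Mb, Tnnt3, Tnni2 and Mylpf) were abundant in every library, summing to 92957 to 114912 CPM in WT and 65220 to 74041 CPM in KO. Of the 6 tested, 2 passed, Acta1 and Mylpf, both lower in KO, and Des alone had a positive log2FC (0.45, edgeR padj = 0.570). The TMM factors were 0.862 to 0.970 in WT and 1.055 to 1.108 in KO. This scaling therefore lowers KO levels against WT, relative to library totals. Endothelial, adipocyte and fibroblast marker sums overlapped between the genotypes, with 0 of 6, 0 of 5 and 0 of 6 tested markers passing. In whole muscle, fewer cells of a type and less RNA per cell cannot be told apart. The labels do not say that each library is a separate animal, so the tests measure the spread between these libraries, which may be technical.

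**Figure D1:**
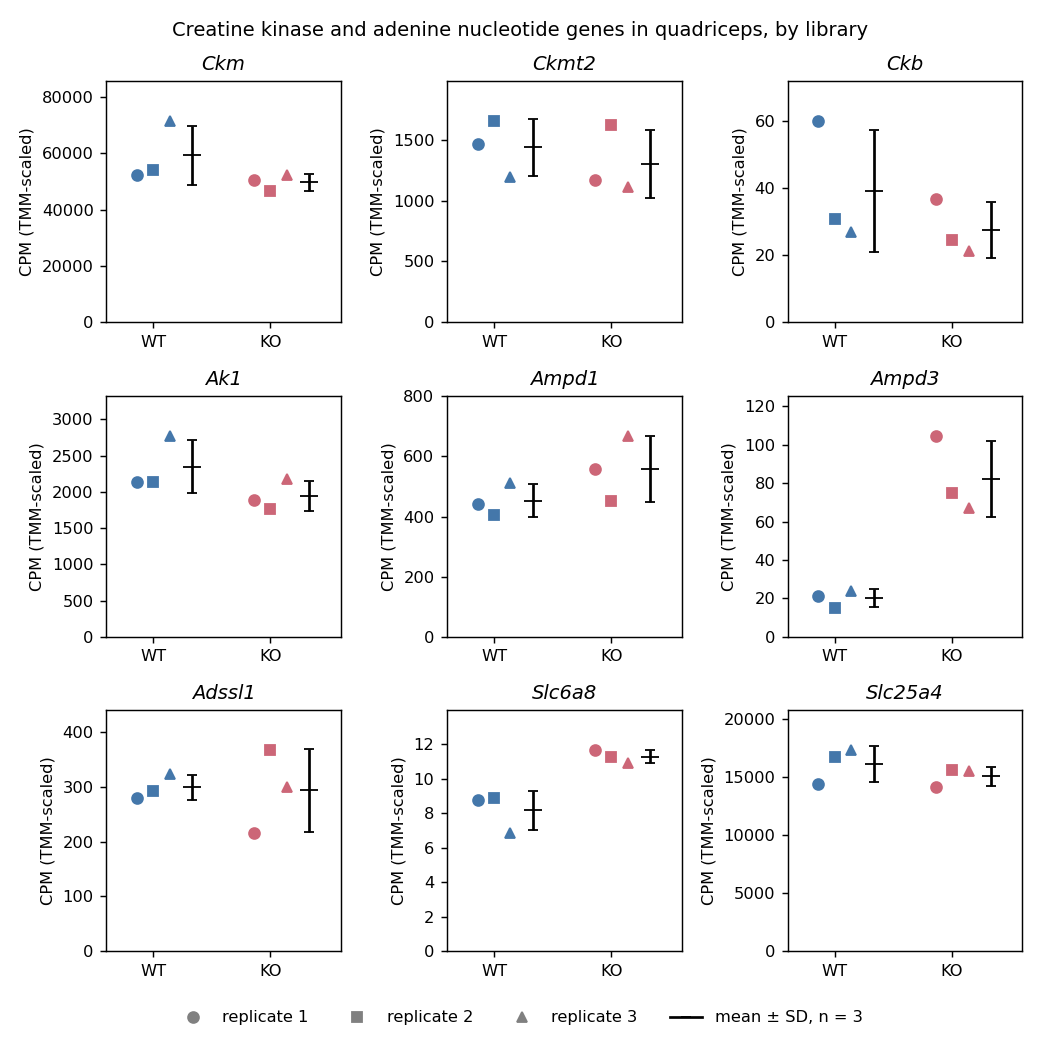
Level of each of the 9 genes (y axis, TMM-scaled CPM from 0, own scale for each gene) in the 3 WT and 3 KO libraries; symbols mark the replicate and bars the mean ± SD (n = 3). The KO libraries lie far above WT for Ampd3 (67.0 to 104.6 against 14.99 to 24.0 CPM), and the ranges touch or overlap for most other genes.

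Ampd3 (ENSMUSG00000005686, GRCm38 chromosome 7, 110768206 to 110812405, plus strand), the gene of the second deaminase, had 29, 22 and 35 reads in the WT libraries and 171, 120 and 117 reads in the KO libraries. Its level was 21.2, 14.99 and 24.0 CPM in the WT libraries and 104.6, 75.0 and 67.0 CPM in the KO libraries. All 3 KO libraries stood above all 3 WT libraries, the lowest at 67.0 CPM and the highest WT library at 24.0 CPM. The means were 20.04 ± 4.59 CPM in WT and 82.2 ± 19.8 CPM in KO, a log2FC of 2.03 (SE 0.23, 95% interval 1.55 to 2.52, edgeR padj = 5.20e-05). The call held in each of 16 alternative settings, with a log2FC from 1.82 to 2.27. Without KO replicate 2, the library whose Prr14 reads stood near WT, the log2FC was 2.09 (edgeR padj = 0.000146).

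Several measurements stand beside the Ampd3 result. Rnf141, a gene on the opposite strand that overlaps Ampd3, had 18 to 43 reads per library and did not pass (log2FC -0.22, edgeR padj = 0.729). Whether the authors counted by strand is not stated, so reads of the overlap could fall to either gene. The 6 red blood cell markers summed to 1624 to 4003 CPM in WT and 1401 to 2016 CPM in KO, where 0 of the 5 tested were higher. The 7 macrophage markers summed to 151 to 490 CPM in WT and 186 to 200.1 CPM in KO, with 0 of 5 tested higher. Ampd3 lies on the same chromosome as Prr14, at a distance of 16.6 Mb.

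Ampd1 (ENSMUSG00000070385, chromosome 3, 103074014 to 103099720, plus strand), the muscle AMP deaminase, stood at 442, 404 and 511 CPM in the WT libraries and at 557, 450.3 and 669 CPM in the KO libraries. KO replicate 2 lay within the WT range, so the groups overlapped. The means were 453 ± 54.4 CPM and 559 ± 109 CPM, with a log2FC of 0.30 (SE 0.14, 95% interval -0.00015 to 0.61, edgeR padj = 0.251), and the test did not pass. It passed with library totals in place of TMM (log2FC 0.54, edgeR padj = 0.0158), a scaling that moves the median log2FC of all tested genes from 0.02 to 0.25. Ampd2, the third deaminase gene, was too low to be tested, with 0 to 5 reads per library.

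Because ratios within a library do not depend on scaling between libraries, the isozymes were also set against each other. Ampd3 made up 4.53%, 3.56% and 4.48% of AMP deaminase reads (Ampd1, Ampd2 and Ampd3 together) in the WT libraries. In the KO libraries it made up 15.7%, 14.2% and 9.08%. The exact binomial 95% intervals of single libraries, which cover counting error only, reached 6.44% at most in WT and began at 7.57% at least in KO. The mean share was 4.19 ± 0.545% in WT and 13.02 ± 3.49% in KO (two-sided exact permutation p = 0.1, the lowest that 3 libraries against 3 can give; 0.233 after adjustment over 7 ratios). KO replicate 3, the lowest of its group by this share, was also the KO library with the most Ampd1 reads, 1167. Ampd1 stood at 0.769 ± 0.0675 reads per 100 Ckm reads in WT and 1.12 ± 0.156 in KO, with no overlap between the groups (two-sided exact permutation p = 0.1, 0.233 adjusted). Ckm is not an isozyme of Ampd1, and this ratio moves with Ckm too. On the TMM scale Ckm had a log2FC of -0.25 and Ampd1 of 0.30, and the Ampd1 levels overlapped.

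**Figure D2:**
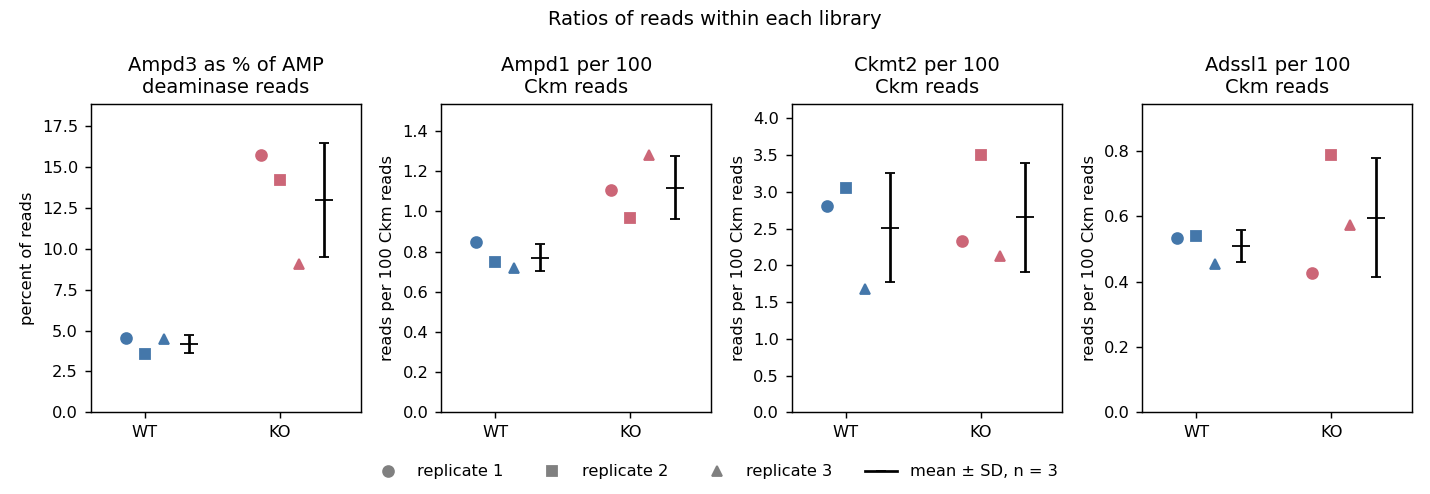
Ratios of reads within each library (y axes from 0; Ampd3 as percent of AMP deaminase reads, and Ampd1, Ckmt2 and Adssl1 reads per 100 Ckm reads) for 3 WT and 3 KO libraries, with bars for the mean ± SD (n = 3). The KO libraries lie above WT for the share of Ampd3 (9.08% to 15.7% against 3.56% to 4.53%) and for Ampd1 over Ckm, while the groups overlap for Ckmt2 and Adssl1.

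Adssl1 (ENSMUSG00000011148, chromosome 12, 112620045 to 112641360, plus strand), the muscle enzyme that starts the return of IMP to AMP, stood at 279, 292 and 324 CPM in the WT libraries and at 215, 366 and 299.6 CPM in the KO libraries. The WT libraries lay close together, and the KO libraries spread to both sides of them. The log2FC was -0.03 (SE 0.17, 95% interval -0.39 to 0.34, edgeR padj = 0.961), and its sign turned in 4 of the 16 alternative settings. Per 100 Ckm reads, Adssl1 stood at 0.509 ± 0.0481 in WT and 0.596 ± 0.182 in KO (two-sided exact permutation p = 0.5). Adss, which encodes the non-muscle isozyme, had 8, 9 and 9 reads in WT and 26, 10 and 14 in KO (log2FC 0.72, SE 0.40, edgeR padj = 0.350). Adsl, the lyase that completes the return to AMP, had WT and KO means of 148 ± 13.1 and 121 ± 7.17 CPM (log2FC -0.29, edgeR padj = 0.251). Neither gene overlapped between the genotypes on the TMM scale. Adss was higher (6.25 to 15.91 CPM in KO, 5.84 to 6.16 in WT) and Adsl lower (115 to 129 CPM in KO, 136 to 162 in WT). Of all tested genes 13.5% were higher without overlap and 12.2% lower. Among the tested genes of the cycle Ampd3 rose, and Ampd1, Adssl1, Adss and Adsl did not pass.

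Ckm (ENSMUSG00000030399, chromosome 7, 19404776 to 19422841, plus strand) encodes the cytosolic muscle creatine kinase, which is partly anchored at the M-band of the sarcomere. It took more reads than any other gene in all 6 libraries, 5.36 ± 0.627% of reads in WT and 5.31 ± 0.271% in KO. On the TMM scale it stood at 52316, 54203 and 71400 CPM in the WT libraries and at 50399, 46486 and 52239 CPM in the KO libraries. The highest KO library lay just under the lowest WT library, and WT replicate 3 stood apart above the rest. The log2FC was -0.25 (SE 0.12, 95% interval -0.52 to 0.01, edgeR padj = 0.269). It was -0.11 without WT replicate 3 and -0.01 with library totals, and it did not pass in any of the 16 alternative settings.

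Ckmt2 (ENSMUSG00000021622, chromosome 13, 91853387 to 91876885, minus strand) encodes the sarcomeric mitochondrial creatine kinase, which sits between the mitochondrial membranes and passes new ATP to creatine. It had 1469, 1657 and 1196 CPM in the WT libraries and 1172, 1626 and 1113 CPM in the KO libraries. KO replicate 2 lay within the WT range and the other 2 KO libraries just below it, so the groups overlapped in part. The log2FC was -0.14 (SE 0.16, 95% interval -0.50 to 0.21, edgeR padj = 0.690). Ckb (ENSMUSG00000001270, chromosome 12, 111669361 to 111672338, minus strand), the brain-type cytosolic kinase that smooth muscle and nerve also make, had 82, 45 and 39 reads in WT and 60, 39 and 37 reads in KO. The WT mean of 39.1 ± 18.1 CPM compared with a KO mean of 27.4 ± 8.20 CPM (log2FC -0.51, SE 0.32, 95% interval -1.21 to 0.20, edgeR padj = 0.435). WT replicate 1 alone stood high, and leaving it out gave a log2FC of -0.10. That library also had the highest sum of nerve and Schwann cell markers (274 CPM, against 140.4 to 212 CPM in the other 5) and of macrophage, red blood cell, adipocyte and fibroblast markers. The 6 smooth muscle markers summed to 356 to 438 CPM in WT and 446 to 587 CPM in KO, where Smtn was higher, 1 of 5 tested. The part of these cells in the Ckb level was not tested. The mitochondrial Ckmt1 had 3 reads in all 6 libraries.

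The balance of mitochondrial to cytosolic creatine kinase differed more between libraries than between genotypes. There were 2.81, 3.06 and 1.68 Ckmt2 reads per 100 Ckm reads in the WT libraries and 2.32, 3.50 and 2.13 in the KO libraries (means 2.51 ± 0.736 and 2.65 ± 0.740, exact two-sided permutation p = 1). The libraries with high ratios were those with high slow-fibre markers. The slow-fibre score, the mean log2 CPM of 12 genes of slow fibres such as Myh7 and Tnnt1, was 5.15, 4.79 and 2.38 in the WT libraries and 4.31, 6.28 and 3.001 in the KO libraries. Of its 11 tested genes Casq2, the calsequestrin of slow and heart muscle, was higher in KO (13.9, 17.04 and 16.4 CPM in the WT libraries, 42.2, 51.8 and 31.5 CPM in the KO libraries, edgeR padj = 0.0024), and no other passed. KO replicate 2 was highest and WT replicate 3 lowest by both the score and the ratio. With the score as a covariate, Ckmt2 had a log2FC of -0.22 (edgeR padj = 0.231), Ckm of -0.20 (0.199), Ampd1 of 0.35 (0.0644) and Ampd3 of 2.05 (0.000136).

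**Figure D3:**
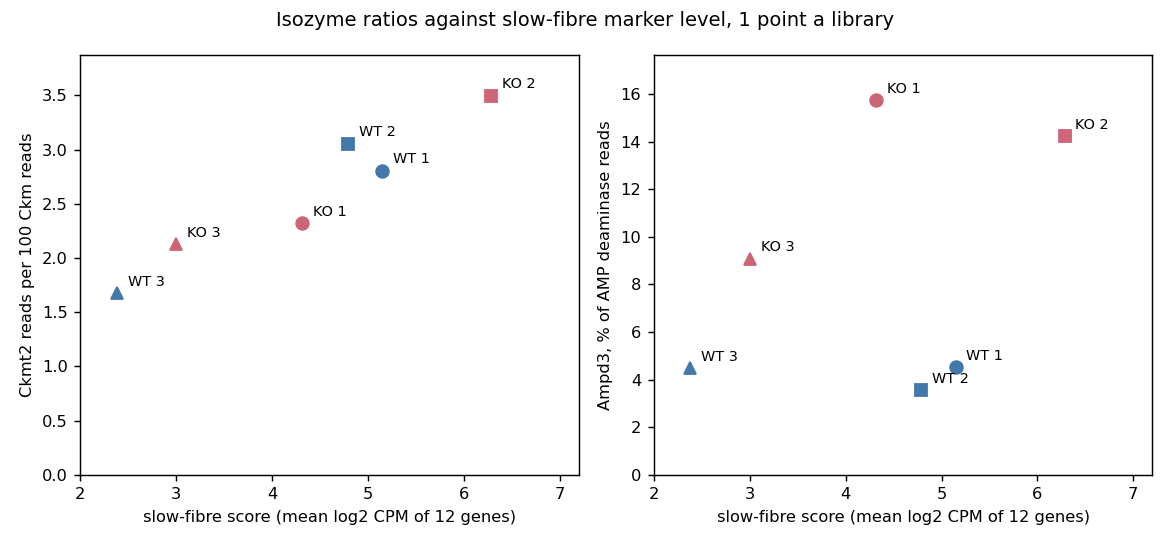
Ckmt2 reads per 100 Ckm reads (left) and Ampd3 as percent of AMP deaminase reads (right), against the slow-fibre score (x axis, mean log2 CPM of 12 genes), with 1 point for each of 3 WT and 3 KO libraries. On the left both genotypes lie along 1 rising band from WT 3 (score 2.38) to KO 2 (score 6.28); on the right the 3 KO libraries lie above the 3 WT libraries at every score.

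Ak1 (ENSMUSG00000026817, chromosome 2, 32621758 to 32635058, plus strand), the cytosolic adenylate kinase of muscle, stood at 2132, 2143 and 2775 CPM in the WT libraries and at 1883, 1769 and 2177 CPM in the KO libraries. KO replicate 3 lay just above the lower WT libraries. The log2FC was -0.27 (SE 0.12, 95% interval -0.53 to -0.02), and the adjusted p missed the threshold (edgeR padj = 0.219). With library totals it was -0.04.

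Slc25a4 (ENSMUSG00000031633, chromosome 8, 46206797 to 46211284, minus strand) encodes the heart and muscle isoform of the carrier that exchanges ADP for ATP across the inner mitochondrial membrane. It was among the 12 most read genes of every library, at 14370, 16673 and 17274 CPM in the WT libraries and 14121, 15557 and 15516 CPM in the KO libraries. The groups overlapped, with a log2FC of -0.10 (SE 0.10, 95% interval -0.31 to 0.12, edgeR padj = 0.665). This was the narrowest interval among the 9 genes. Slc25a5, the isoform of most other cells, had WT and KO means of 149 ± 10.7 and 185 ± 28.2 CPM (log2FC 0.32, SE 0.14, edgeR padj = 0.232). As a share of the reads of both carriers, Slc25a4 made up 98.99% to 99.2% in WT and 98.6% to 98.97% in KO. The KO libraries all lay below the WT libraries, by 0.295 percentage points on average (two-sided exact permutation p = 0.1, 0.233 adjusted). The nearest libraries, WT replicate 1 and KO replicate 3, lay within counting error of each other. Their exact binomial 95% intervals were 98.84% to 99.12% and 98.85% to 99.09%.

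Slc6a8 (ENSMUSG00000019558, chromosome X, 73673150 to 73682502, plus strand) encodes the transporter that brings creatine into the fibre. It was the least read of the 9 genes, with 12, 13 and 10 reads in the WT libraries and 19, 18 and 19 reads in the KO libraries. The WT mean of 8.15 ± 1.13 CPM compared with a KO mean of 11.3 ± 0.37 CPM, without overlap. The log2FC of 0.46 (SE 0.30, 95% interval -0.18 to 1.11, edgeR padj = 0.443) did not pass, and at this depth a 2-fold rise lies within the interval. Counting the libraries alone, 3 of the 9 genes did not overlap between the genotypes (33.3%: Ampd3 and Slc6a8 higher, Ckm lower), against 25.8% of all tested genes, 13.5% higher and 12.2% lower. As shares of library totals the 3 were Ampd3, Slc6a8 and Ampd1, all higher, with Ckm overlapping, against 33.4% of all tested genes, 28.2% higher and 5.21% lower.

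Reads of close relatives can be split between them by counting. Over the aligned bases of the longest open reading frames, identity was 76.4% between Ckm and Ckb, 69.3% between Ckm and Ckmt2, 69.4% between Ampd1 and Ampd3, 70.3% between Adssl1 and Adss and 78.7% between Slc25a4 and Slc25a5. The sources used here do not name the read counter, and pseudogene copies were not examined.

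Of 60 other genes of creatine and purine nucleotide metabolism, 35 were read deeply enough to be tested, and 1 rose and 1 fell, beside 2.98% and 3.28% of all tested genes. Gamt (ENSMUSG00000020150, chromosome 10), the methyltransferase of the last step of creatine synthesis, had 17, 20 and 34 reads in the WT libraries and 52, 53 and 56 reads in the KO libraries. It rose from 16.4 ± 5.95 to 32.3 ± 0.68 CPM (log2FC 0.97, SE 0.25, edgeR padj = 0.0327). Its call was lost with DESeq2 (adjusted p = 0.141) and without WT replicate 1 (0.162), WT replicate 2 (0.183), KO replicate 1 (0.0504), KO replicate 2 (0.0666) or KO replicate 3 (0.0748). Gatm, the enzyme of the first step, had 13 to 34 reads per library and did not pass (log2FC -0.28, edgeR padj = 0.707).

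Vdac3 (ENSMUSG00000008892, chromosome 8), a porin of the outer mitochondrial membrane through which nucleotides and creatine pass, fell from 811 ± 65.9 to 603 ± 19.3 CPM (log2FC -0.43, SE 0.10, edgeR padj = 0.0182). Its level was 757, 791 and 884 CPM in the WT libraries and 621, 583 and 606 CPM in the KO libraries, without overlap. The call was lost with DESeq2 (adjusted p = 0.0501), with library totals (0.202) and without WT replicate 2 (0.0776), WT replicate 3 (0.0937), KO replicate 2 (0.0571) or KO replicate 3 (0.0674). The other porins Vdac1 and Vdac2 had log2FC of -0.17 and -0.20 and did not pass (edgeR padj = 0.403 and 0.321). Across the 35 tested genes 20 had a positive and 15 a negative log2FC, with a median of 0.06 beside 0.02 for all tested genes. Without adjustment 9 of the 35 had an edgeR p under 0.05, against 20% of all tested genes. Of these, 4 were among the 7 tested carriers and porins. On the TMM scale 9 of the 35 were higher without overlap between the genotypes and 5 lower, against 13.5% and 12.2% of all tested genes.

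By group, 0 of 2 other adenylate kinases passed, 0 of 9 genes of nucleotide breakdown and salvage, 0 of 7 of purine synthesis, 0 of 4 nucleoside diphosphate kinases and 0 of 2 nucleoside transporters (edgeR). In these groups 0, 2, 1, 0 and 1 genes had an unadjusted p under 0.05, 4 of their 24 tested genes against 20% of all tested genes, and DESeq2 called none of them. This count leaves out the groups that hold a gene that passed, so it does not stand for all 35. The nearest to the threshold in these groups were the salvage enzyme gene Hprt, with a log2FC of 0.54 (edgeR padj = 0.0734), and the nucleotidase gene Nt5c, with 0.91 (edgeR padj = 0.0895). With library totals 7 of the 35 passed as higher, Hprt and Nt5c among them, and 0 as lower. Over all 6680 tested genes that scaling called 649 higher and 148 lower. It also moved the median log2FC of all tested genes from 0.02 to 0.25.

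**Figure D4:**
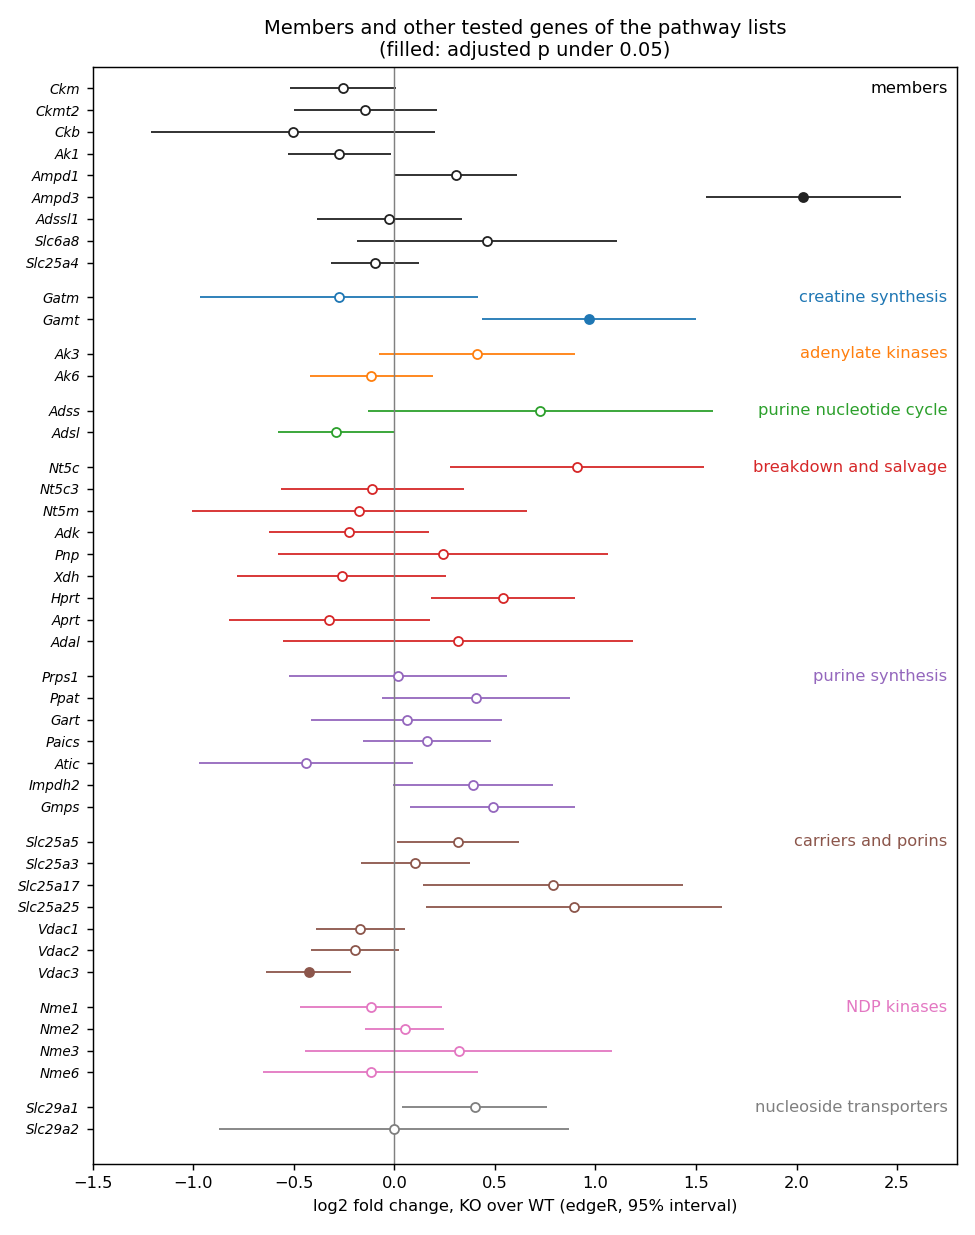
Log2 fold change of KO over WT (x axis, edgeR estimate with its 95% interval) for the 9 genes and the 35 other tested genes of the pathway lists (y axis, by group); filled points have an adjusted p under 0.05. Ampd3 (2.03) lies farther from 0 than any other gene shown, and Gamt (0.97) and Vdac3 (-0.43) are the other filled points.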

How the data were processed

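Reads were counted per Ensembl gene by the authors, and the deposited counts are whole numbers, not normalized. The authors also deposited CPM, the counts over a fixed total per library, of which the listed genes held all but 3.09% to 4.10%; these CPM served only to check the counts. The submitters' processing notes name minimap2, DESeq2 1.6.3 and the GRCm38 build; no counter, annotation release or use of strand is given in the sources used here. Libraries are numbered 1 to 3 within a genotype in accession order.

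All genes entered 1 fit in edgeR 4.0.16 (R 4.3.3): 6680 genes remained after filterByExpr (minimum count 10, minimum total 15), TMM scaling, and the robust quasi-likelihood test of KO against WT, with Benjamini-Hochberg adjustment over all tested genes. The SE is the log2 fold change over the square root of F. Ratios within a library were compared by exact permutation. The reads carry no molecular identifiers. Between libraries of the same genotype, chi-square over its degrees of freedom was 2.49 to 6.44, so none agreed within sampling noise. Positions are from GENCODE M21 on GRCm38, promoters from RefSeq. The steps were also run on simulated counts with as many rises as falls set in. That run did not model the difference in composition between these genotypes, and its outcome is not given here.

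The 9 genes and all lists were chosen with earlier results of these data known. Named genes were all 9, every gene of the lists that passed, Slc25a5, Ampd2, Adss, Adsl, Gatm and Prr14; Gamt and Vdac3 passed. A further gene of that rule is not reported here. Hprt, Nt5c, Vdac1, Vdac2, Ckmt1 and Rnf141 were named after their values were seen. Alternatives were DESeq2 1.42.0, limma-voom 3.58.1, robust=FALSE, 4 other scalings, 2 other filters, a slow-fibre score as a covariate, and each library left out in turn.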

Additional observations from a re-analysis of the deposited data

How the results depend on the processing

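With 16 alternative settings, the rise of Ampd3 kept its direction and its call in all of them, and 0 of the 9 genes passed as lower in any. With library totals the number higher was 2, because Ampd1 passed (log2FC 0.54), and Ckmt2, Adssl1 and Slc25a4 turned to 0.082, 0.21 and 0.14. Adssl1 also turned to 0.060 with library sizes that leave out the 20 most abundant genes, and ranged from -0.21 to 0.16 with each library left out in turn. Gatm ranged from -0.60 to 0.037 in the same way. Of the pathway lists, 7 genes were higher with library totals, 2 without the 20 most abundant genes, 4 with no filter and 0 with DESeq2, and 0 to 1 with each library left out. Lower were 0 with library totals and 0 with DESeq2, and 0 to 1 with each library left out. The background moved too, and the number of genes tested differs between settings. Over all genes, 649 of 6680 tested were higher and 148 lower with library totals. Without the 20 most abundant genes 298 of 6680 were higher and 177 lower. With no filter 344 of 14292 were higher and 362 lower, and with DESeq2 127 of 8189 were higher and 171 lower. With each library left out 83 to 179 were higher. With each library left out, the KO minus WT difference ranged from -0.285 to 0.410 for Ckmt2 per 100 Ckm reads, from -0.0302 to 0.00828 for Ckb per 100 Ckm reads, from -0.0292 to 0.0080 percentage points for Ckb among the 3 creatine kinases and from -0.0092 to 0.171 for Adssl1 per 100 Ckm reads. The causes of these changes were not tested. No denominator of a ratio was at 0, so the floor of 3 counts was not needed. No paired analysis was possible because the genotypes share only 1 number in the titles. The intervals of Slc6a8, the least read of the 9 genes, and of Ckb, whose WT libraries spread most relative to their mean, include a 2-fold change.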

Other observations

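Across the 6 libraries, Ckmt2 reads per 100 Ckm reads rose with the slow-fibre score (Pearson r = 0.959, exact permutation p = 0.00556, adjusted p = 0.0389 over 7 ratios; Spearman rho = 0.943, exact permutation p = 0.0167, adjusted p = 0.117). Without WT replicate 3 and KO replicate 2, the libraries farthest from the median score, r was 0.837 over the other 4. The relation was computed after the values were seen, the score and the ratio come from the same libraries, and each genotype has too few libraries for a value of its own. The other 6 ratios had Pearson r between -0.530 and 0.660, with adjusted p of 0.498 or more. Over the same 4 libraries r was -0.900 for Ampd1 per 100 Ckm reads and 0.775 for Ckb per 100 Ckm reads, and between -0.410 and 0.772 for the other 4 ratios.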
